A study of Mus musculus with 4 samples.

Results

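Blood cells of the embryo emerge from mesoderm and from hemogenic endothelium, and a small set of genes marks the first steps. The 8 genes described here are 5 transcription regulators, Runx1, Gfi1, Spi1, Myb and Ikzf1, 2 cell surface proteins, Itga2b and Ptprc, and the secreted platelet factor Pf4. They were taken by symbol from the probe sets of the array that the platform's annotation gives exactly 1 gene. All 8 were found, on 17 of 45101 probe sets, and each was read on its probe set with the highest mean over the 4 arrays, among 18194 genes represented in that way. Runx1 had 6 probe sets, Myb 3, Ikzf1 and Ptprc 2 each, and Gfi1, Spi1, Itga2b and Pf4 1 each.

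The arrays measured total RNA from cells of the mouse embryonic stem cell line TT2, in which 1 allele of Etv2 carries a knocked-in Venus fluorescent reporter, so that every cell compared is heterozygous at Etv2. Differentiation took place on OP9, stromal cells from mouse bone marrow that favour mesoderm and blood, and the sample labels give day 5. Flk-1 positive cells, where Flk-1 is the VEGF receptor encoded by Kdr, were sorted into an Etv2-Venus negative population (Flk-1+/Etv2-) and an Etv2-Venus positive population (Flk-1+/Etv2+), with 2 arrays of each, numbered 1 and 2. The labels name 1 cell line and do not say whether the arrays came from separate cultures, so p-values reflect the scatter of these arrays alone, and that scatter may be technical. Values are deposited log2 expression values, and differences are Flk-1+/Etv2+ minus Flk-1+/Etv2- with the standard error (SE) of a limma fit over all genes. Brightness also depends on a probe set's sequence, so levels are compared between arrays and not between genes. A place relative to the median of all genes is given only as a rough mark of the scale.

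Runx1 is the runt domain factor required for blood cells to emerge from hemogenic endothelium, and it is transcribed from a distal and a proximal promoter. Gfi1, a zinc finger repressor, acts downstream of Runx1 and turns off endothelial genes in emerging blood cells. Spi1 encodes PU.1, an ETS family factor of myeloid and lymphoid cells. Myb is needed for definitive blood progenitors, and Ikzf1 encodes Ikaros, a zinc finger regulator of lymphoid and early progenitor genes. Itga2b encodes CD41, the integrin alpha chain of platelets that is also among the first surface markers of embryonic blood progenitors. Ptprc encodes CD45, a phosphatase carried by nearly all leukocytes and acquired after CD41, and Pf4 is a chemokine stored in megakaryocytes and platelets.

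The promoters of the members were examined because Etv2 belongs to the ETS family, whose members bind sites around the letters GGAA. RefSeq start sites on build GRCm38.p6 were given for 7 of the 8 genes, in 11 windows of 250 bases before a start. The entry for Spi1 was missing. Windows were searched on both strands. The ETS motifs were CCGGAA or the form AGGAAG, whose matches did not overlap in these windows. The RUNX motifs were TGTGGT or its variant TGCGGT. The GATA motifs were AGATAA or its variant TGATAA. The E-box motif of the Tal1 type was CAGATG, which on its reverse strand can overlap the GATA form. At least 1 of the ETS motifs was present in 8 of the 11 windows, against 38.2% of all 32851 promoter windows of the same length. No window held a RUNX motif, against 18.6% of all windows, and the inner window of Ptprc alone held GATA and E-box motifs, against 16.6% and 14.4% of all windows. The window of Myb and the outer windows of Gfi1 and Ikzf1 held none of the 7 motifs. The 2 windows of Ptprc overlap, since their starts lie 179 bases apart, and they share 1 ETS match. These are matches of letters, and binding was not measured here. The windows below, each written 5' to 3' on the gene's strand with ETS matches in capitals, are shown for both Runx1 starts, for the members with higher signal in Flk-1+/Etv2+ cells that hold a match, and for Ptprc as the contrasting surface marker.
Runx1 outer start, chr16:92826075-92826324, minus strand: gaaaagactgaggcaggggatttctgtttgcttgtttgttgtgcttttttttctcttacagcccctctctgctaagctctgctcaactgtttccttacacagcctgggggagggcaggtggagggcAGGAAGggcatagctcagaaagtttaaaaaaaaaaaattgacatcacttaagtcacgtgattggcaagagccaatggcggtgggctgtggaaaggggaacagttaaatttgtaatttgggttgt
Runx1 inner start, chr16:92697330-92697579, minus strand: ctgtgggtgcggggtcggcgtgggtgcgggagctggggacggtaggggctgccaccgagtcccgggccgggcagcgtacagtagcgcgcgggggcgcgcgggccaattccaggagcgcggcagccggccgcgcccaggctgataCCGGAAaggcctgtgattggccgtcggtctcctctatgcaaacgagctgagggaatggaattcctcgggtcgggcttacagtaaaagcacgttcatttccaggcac
Gfi1 inner start, chr5:107724344-107724593, minus strand: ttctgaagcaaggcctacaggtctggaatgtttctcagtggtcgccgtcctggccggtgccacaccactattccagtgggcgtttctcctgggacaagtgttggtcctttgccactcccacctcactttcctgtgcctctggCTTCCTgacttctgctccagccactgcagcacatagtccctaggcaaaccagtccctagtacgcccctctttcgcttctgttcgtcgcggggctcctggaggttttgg
Ikzf1 inner start, chr11:11689927-11690176, plus strand: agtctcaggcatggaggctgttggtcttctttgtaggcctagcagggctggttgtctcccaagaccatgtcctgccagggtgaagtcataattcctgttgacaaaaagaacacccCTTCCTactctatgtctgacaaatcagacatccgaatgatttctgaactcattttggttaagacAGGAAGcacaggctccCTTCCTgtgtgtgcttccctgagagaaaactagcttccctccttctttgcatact
Itga2b, chr11:102469884-102470133, minus strand: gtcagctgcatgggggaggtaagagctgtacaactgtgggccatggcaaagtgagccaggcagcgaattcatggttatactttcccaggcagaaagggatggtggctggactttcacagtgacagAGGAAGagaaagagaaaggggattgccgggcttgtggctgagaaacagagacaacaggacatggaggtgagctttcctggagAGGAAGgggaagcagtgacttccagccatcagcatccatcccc
Ptprc outer start, chr1:138175306-138175555, minus strand: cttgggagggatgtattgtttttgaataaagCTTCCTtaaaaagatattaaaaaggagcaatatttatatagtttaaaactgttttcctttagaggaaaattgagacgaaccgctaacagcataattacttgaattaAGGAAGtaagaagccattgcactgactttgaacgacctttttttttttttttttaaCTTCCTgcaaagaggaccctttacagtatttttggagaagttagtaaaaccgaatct

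The 2 Runx1 windows come from start sites 128745 bases apart and hold 1 match each, AGGAAG in the outer and CCGGAA in the inner window. The inner Ikzf1 window and the outer Ptprc window hold 3 AGGAAG matches each, the Itga2b window 2 and the inner Gfi1 window 1. Ikzf1 was higher in Flk-1+/Etv2+ cells on the probe set used, and Ptprc measured near the bottom of the scale in both populations. Their other windows differ, with no ETS match in the outer Ikzf1 window and 1 in the inner Ptprc window. A link between the number of matches and the array values was not tested. Where the probe sets lie relative to these start sites is not given in the sources used here, so the arrays give no level per promoter.

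Among the 8 genes, Gfi1, Spi1, Myb, Ikzf1 and Itga2b measured higher on both Flk-1+/Etv2+ arrays than on either Flk-1+/Etv2- array. Ptprc measured lower on both, at a very dim level, and the arrays overlapped for Runx1 and Pf4. Such a complete separation, called arrays apart below, was seen with Flk-1+/Etv2+ higher for 5 of 8 members, against 22.4% of all genes, and with Flk-1+/Etv2+ lower for 1 of 8, against 17% of all genes. At an unadjusted limma p under 0.05 the same 5 genes were higher and Ptprc lower, against 7.07% and 4.64% of all genes. After adjustment over the 18194 genes none of the 8 passed 0.05, and 0% of all genes passed in either direction, with a smallest adjusted p of 0.0669. The median difference of the members was 0.37, beside 0.01 over all genes, and 7 of 8 lay above 0, as did 52.9% of all genes. A difference of at least 0.5 was seen for 3 members, Gfi1, Ikzf1 and Itga2b, against 3.25% of all genes. In these bulk samples, more cells expressing a gene and more RNA per cell cannot be told apart.

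**Figure D1:**
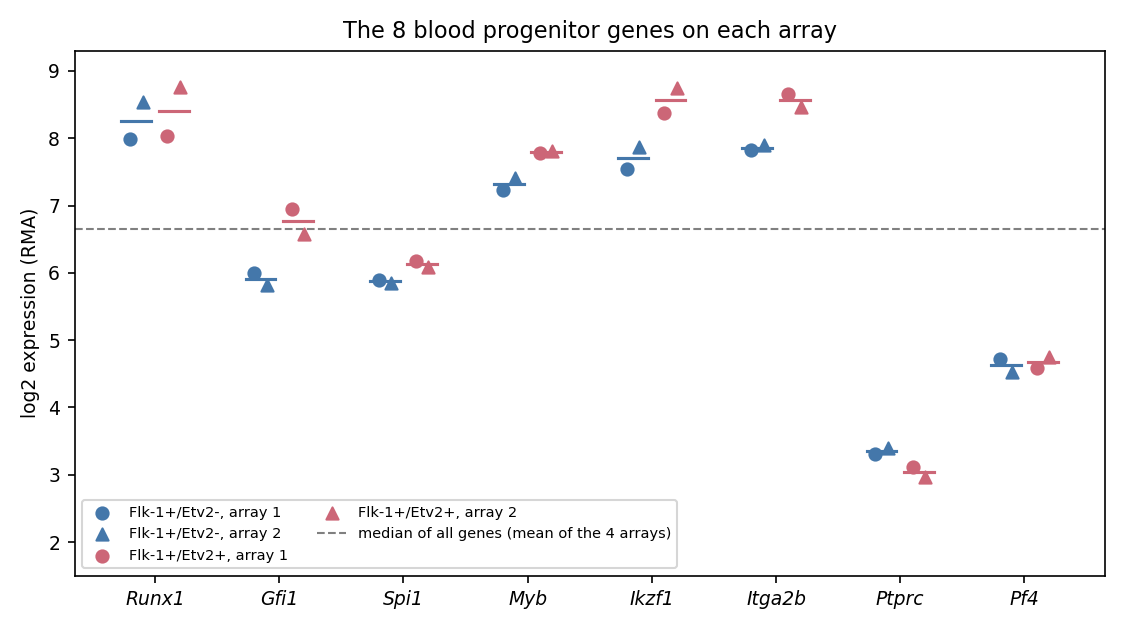
Log2 expression of the 8 genes (vertical axis) on each array, with blue for Flk-1+/Etv2-, red for Flk-1+/Etv2+, circles for array 1, triangles for array 2 and short bars for the group means; the dashed line is the median of all genes. The red points lie above the blue ones for Gfi1, Spi1, Myb, Ikzf1 and Itga2b, overlap them for Runx1 and Pf4 and lie below them for Ptprc.

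Runx1 measured 7.99 and 8.54 in Flk-1+/Etv2- cells and 8.04 and 8.77 in Flk-1+/Etv2+ cells. The arrays interleaved, with both arrays numbered 2 above both numbered 1, so the spread within a population exceeded the difference between them. That difference was 0.14 (SE 0.31, 95% interval -0.67 to 0.95, limma adjusted p = 0.933), an interval that holds changes in either direction. Its direction turned without array 1 of Flk-1+/Etv2- (-0.13) and without array 2 of Flk-1+/Etv2+ (-0.22). Each such fit leaves the array numbers unbalanced between the populations. Within a number the difference was 0.05 for arrays 1 and 0.23 for arrays 2. With the array number as a block the SE was 0.08 and the limma adjusted p 0.422. Stroma markers went the other way from Runx1 between the array numbers. The mean level of 8 such genes was 6.41 and 6.26 on the arrays numbered 1. On those numbered 2 it was 5.74 and 5.50. Their median moved less, from 5.86 to 5.71 in Flk-1+/Etv2- and from 5.68 to 5.28 in Flk-1+/Etv2+ cells. Much of the gap in the mean came from the collagen genes Col1a2, at 10.02 and 9.79 against 8.41 and 7.96, and Col3a1, named after its values were seen, at 7.86 and 7.73 against 5.90 and 5.39. Their part in the Runx1 values was not tested.

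The other 5 Runx1 probe sets did not settle on one pattern. Their differences, from the fit of every probe set, ran from -0.25 (SE 0.15) to 0.31 (SE 0.14). The highest came from a probe set that measured 6.78 and 6.49 in Flk-1+/Etv2- and 6.99 and 6.90 in Flk-1+/Etv2+ cells, with the arrays apart. The lowest came from one that measured 6.21 and 6.47 against 5.96 and 6.22, with the arrays overlapping. Of the 6 probe sets, 5 had a difference above 0 and 2 had arrays apart, both with Flk-1+/Etv2+ higher, and none passed adjustment. Over all genes, each on 1 probe set, 52.9% lay above 0 and 22.4% had arrays apart in that direction.

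Gfi1 measured 5.99 and 5.81 in Flk-1+/Etv2- and 6.95 and 6.58 in Flk-1+/Etv2+ cells. The 2 populations did not overlap. Flk-1+/Etv2- lay below the median of all genes on its 2 arrays, and array 2 of Flk-1+/Etv2+ lay about level with it, at 6.58 against 6.59. The difference was 0.86 (SE 0.16, 1.81-fold, 95% interval 0.44 to 1.28, limma adjusted p = 0.141), the 186th in the higher direction among 18194 genes. Ikzf1 measured 7.54 and 7.86 in Flk-1+/Etv2- and 8.38 and 8.75 in Flk-1+/Etv2+ cells, again without overlap. Its difference was nearly the same, 0.86 (SE 0.18, 1.82-fold, interval 0.38 to 1.34, adjusted p = 0.170). The second Ikzf1 probe set was dim and flat, at 4.74 and 4.94 against 4.81 and 4.76, and averaging the 2 probe sets gave a difference of 0.40.

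Myb measured 7.23 and 7.42 in Flk-1+/Etv2- and 7.78 and 7.82 in Flk-1+/Etv2+ cells, a difference of 0.47 (SE 0.11, 1.39-fold, interval 0.20 to 0.75, adjusted p = 0.187). By the suffix of its identifier, this probe set may cross-hybridize with other transcripts. The other Myb probe sets showed larger differences in the same direction. One measured 6.32 and 6.64 against 7.11 and 7.42, and the dimmest 4.50 and 4.83 against 5.31 and 5.71, with differences of 0.78 (SE 0.18) and 0.84 (SE 0.20) in the fit of every probe set. All 3 Myb probe sets thus had their arrays apart, against 22.4% of all genes on 1 probe set each, and averaging them gave 0.70.

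Spi1 had the smallest difference of the 4 regulators with arrays apart. It measured 5.90 and 5.85 in Flk-1+/Etv2- and 6.18 and 6.09 in Flk-1+/Etv2+ cells, below the median of all genes on every array. The difference was 0.26 (SE 0.09, 1.20-fold, interval 0.02 to 0.50, adjusted p = 0.394). Its unadjusted p of 0.0410 passed 0.05 in 5 of 11 alternative settings, while those of Gfi1, Myb, Ikzf1 and Itga2b passed in all 11.

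Itga2b, the CD41 chain, measured 7.82 and 7.90 in Flk-1+/Etv2- and 8.66 and 8.46 in Flk-1+/Etv2+ cells. The gap between the populations was larger than the spread within either. The difference was 0.70 (SE 0.11, 1.63-fold, interval 0.41 to 0.99), and its limma adjusted p of 0.112 was the lowest of the 8 genes. Across the 11 alternatives its adjusted p ran from 0.0732 to 0.478. Itgb3, the beta chain that pairs with CD41 on platelets, measured 6.32 and 6.36 against 6.88 and 6.90, a difference of 0.55 (SE 0.09, adjusted p = 0.112). Both chains of that integrin were therefore higher on each Flk-1+/Etv2+ array on the probe sets used. Itgav, another partner of Itgb3 named after its value was seen, differed by 0.08 (SE 0.10). Itgb3 has 2 probe sets and Itgav 5, and only the brightest of each is given here.

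Ptprc, the CD45 gene, measured 3.30 and 3.39 in Flk-1+/Etv2- and 3.12 and 2.97 in Flk-1+/Etv2+ cells. Only 6.98% of genes had an equal or lower mean, so the probe set sits near the bottom of the array's scale. The difference was -0.30 (SE 0.10, interval -0.57 to -0.03, adjusted p = 0.367). The second Ptprc probe set was as dim and had the opposite sign, at 2.94 and 2.89 against 3.19 and 3.0, a difference of 0.18 (SE 0.11) in the fit of every probe set. The arrays were apart on both probe sets, in opposite directions, so no direction is given for Ptprc. The unadjusted p of the brighter one, 0.0343, passed 0.05 in 5 of the 10 alternatives that include it.

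Pf4 measured 4.72 and 4.53 in Flk-1+/Etv2- and 4.58 and 4.76 in Flk-1+/Etv2+ cells, a difference of 0.04 (SE 0.12, interval -0.27 to 0.36, adjusted p = 0.953). Its 4 arrays lay within one narrow band below the median of all genes, and its sign turned without array 2 of Flk-1+/Etv2- (-0.05) or array 2 of Flk-1+/Etv2+ (-0.04).

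**Figure D2:**
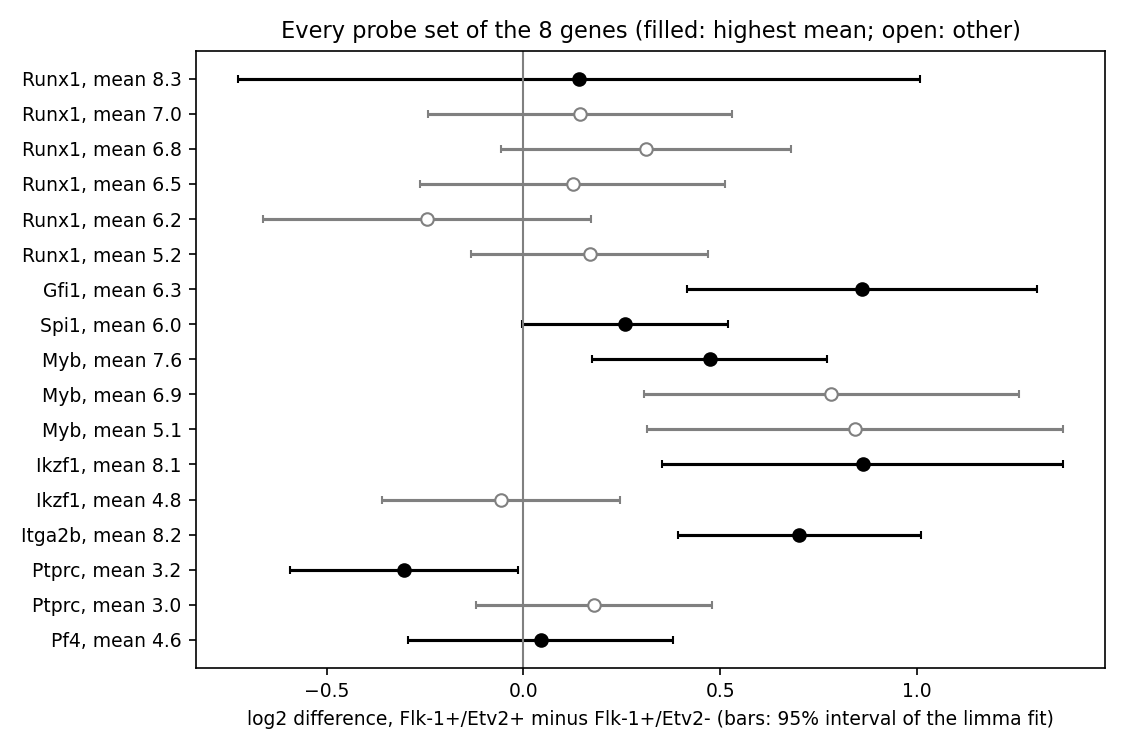
Log2 difference between Flk-1+/Etv2+ and Flk-1+/Etv2- (horizontal axis) for all 17 probe sets of the 8 genes, each labelled with its gene and its mean log2 level, with 95% intervals of the limma fit of every probe set; filled points are the probe sets used, open points the others. Of the 17, 10 had arrays apart with Flk-1+/Etv2+ higher and 1 with it lower. Over all genes, each on 1 probe set, these shares were 22.4% and 17%, and the share over all probe sets was not computed. The intervals of the 3 Myb probe sets lie above 0 while those of all 6 Runx1 probe sets include 0.

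The relatives and partners of the members were followed as a list of 21 genes, of which 20 were measured and Runx2 was not analysed here. The list had a median difference of 0.06, beside 0.01 over all genes. Arrays were apart with Flk-1+/Etv2+ higher for 6 of 20 and lower for 3, against 22.4% and 17% of all genes. At an unadjusted limma p under 0.05, 2 of the 20 were higher and 0 lower, against 7.07% and 4.64% of all genes, so these counts lay near the background. With the probe sets of each gene averaged, 1 was higher and 1 lower. On the probe sets used, the 2 higher genes were Itgb3 and Ikzf2, the Helios gene of the Ikaros family. Ikzf2 measured 7.16 and 7.46 against 7.69 and 8.10, a difference of 0.58 (SE 0.19, limma adjusted p = 0.346). Ikzf3 (Aiolos), also of that family, differed by 0.20 (SE 0.10) at a dim level, and Ikzf4 (Eos) by -0.20 (SE 0.10).

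Runx3, a relative of Runx1, measured 7.22 and 6.78 against 6.83 and 6.86, with overlapping arrays and a difference of -0.16 (SE 0.17). Cbfb, the partner that all RUNX proteins need to bind DNA firmly, was bright, at 11.71 and 11.62 against 12.01 and 11.75, a difference of 0.21 (SE 0.13). Gfi1b, the relative of Gfi1 in erythroid and megakaryocyte cells, measured 6.09 and 6.12 against 6.18 and 6.69. That difference of 0.33 (SE 0.19, adjusted p = 0.605) rested mostly on array 2 of Flk-1+/Etv2+, whereas both arrays carried the one of Gfi1. Kdm1a, a histone demethylase recruited by both GFI1 proteins, measured 11.85 and 11.81 against 11.66 and 11.62 (-0.19, SE 0.09). The phosphatases Ptpn6 and Ptprj, which like CD45 act in blood cells, differed by -0.10 (SE 0.09) and -0.75 (SE 0.39), the arrays overlapping for Ptprj.

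A second list held 39 companions of early blood progenitors, of which 37 were analysed here. Its median difference was 0.20. Arrays were apart with Flk-1+/Etv2+ higher for 21 of 37 and lower for 5, against 22.4% and 17% of all genes, and 15 were higher and 0 lower at an unadjusted limma p under 0.05, against 7.07% and 4.64% of all genes. None passed after adjustment over all genes, although 5 did when the variance prior followed the mean level, estimated robustly, and 4 among genes with a mean of at least 6. Fli1 and Erg, ETS factors of endothelium and blood, differed by 1.44 (SE 0.10) and 1.27 (SE 0.09), and Lmo2, a bridging protein of the Tal1 complex, by 0.98 (SE 0.09), each with an adjusted p of 0.0669. Gata2, a zinc finger factor of blood progenitors, measured 9.08 and 9.35 against 9.90 and 10.05, a difference of 0.76 (SE 0.13, adjusted p = 0.131). The differences of Gfi1, Ikzf1 and Itga2b thus lay below those of Fli1, Erg and Lmo2 and close to that of Gata2, with no test of these gaps.

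The companions are given by class, with no test between the classes, whose differences overlapped widely. Against 7.07% of all genes, of 17 regulators 8 were higher at an unadjusted p under 0.05, with a median of 0.29, and of 9 genes for proteins found in the cytoplasm of blood cells 4 were, with a median of 0.39. Plek, a signalling protein of platelets and leukocytes, led the latter at 6.19 and 6.28 against 7.15 and 7.10 (0.89, SE 0.09, adjusted p = 0.0692). Of 11 surface proteins 3 were higher, with a median of -0.05. Those 3 were Kit, Cd34 and Procr, named after their values were seen, at 0.66 (SE 0.10), 0.86 (SE 0.13) and 0.75 (SE 0.14), genes that endothelial cells or their precursors also express. Arrays were apart with Flk-1+/Etv2+ lower for 3 of the 11 surface genes, against 17% of all genes, and none of these passed. They were Flt3 and Il7r, cytokine receptors of blood progenitors and lymphoid cells, and Cd93, found on progenitors and endothelium. Their differences were -0.16 (SE 0.09), -0.21 (SE 0.12) and -0.23 (SE 0.12). Flt3 was dim, with a mean of 4.88. Il7r was near the bottom of the scale, and its arrays barely separated, at 3.43 and 3.20 against 3.18 and 3.03. Cd93 has 5 probe sets, and only the brightest is given. Irf8, a factor of myeloid cells, differed by -0.14 (SE 0.09).

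**Figure D3:**
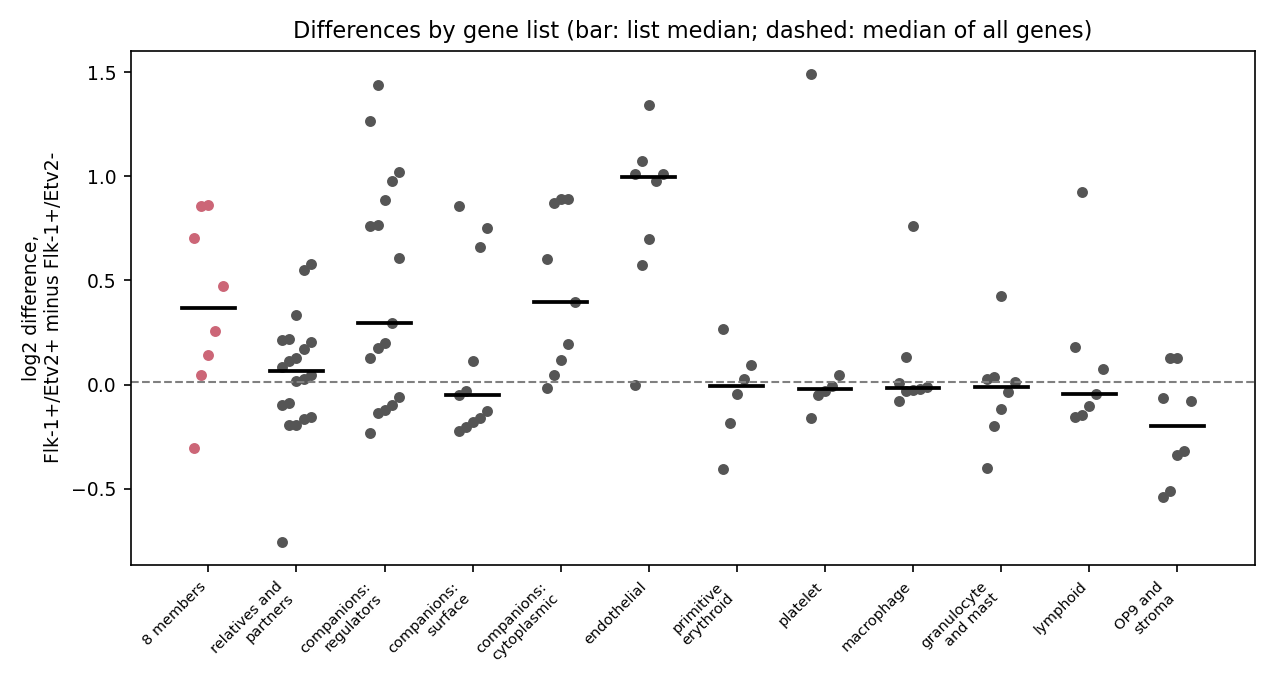
Log2 difference between Flk-1+/Etv2+ and Flk-1+/Etv2- (vertical axis) for the 8 members, their relatives and partners, the companions by class and marker lists of other cell types; each point is a gene, each bar a list median and the dashed line the median of all genes. The members spread from -0.30 to 0.86, and the endothelial list has the highest median, 0.99. The medians of the erythroid, platelet, macrophage, granulocyte and lymphoid lists, whose genes are mostly dim, lie close to 0.

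Markers of other cell types moved with the members as follows, and their part in the members' differences was not tested. Endothelial markers were higher, with arrays apart for 7 of 8, against 22.4% of all genes, and a median of 0.99. Their mean levels were 6.87 and 6.94 in Flk-1+/Etv2- against 7.65 and 7.84 in Flk-1+/Etv2+ cells. Tek and Esam, a receptor and a junction protein of endothelium, differed by 1.34 (SE 0.14) and 1.07 (SE 0.10), and Flt1, a VEGF receptor, by 0.70 (SE 0.14). Nascent mesoderm markers went the other way, with a median of -1.47. Their arrays were apart with Flk-1+/Etv2+ lower for 7 of 8, against 17% of all genes. Among them Dll1, a Notch ligand, differed by -1.89 (SE 0.19), and Lhx1 and Eomes, transcription factors of early mesoderm, by -1.33 (SE 0.12) and -1.03 (SE 0.14). Stroma markers had a median of -0.20, with arrays apart and Flk-1+/Etv2+ lower for 1 of 8, against 17% of all genes. That 1 was Col1a1 at -0.54 (SE 0.18), and the arrays overlapped for Pdgfrb at -0.51 (SE 0.34) and Col1a2 at -0.34 (SE 0.80). For the sort itself, Etv2 measured 12.03 and 11.87 in Flk-1+/Etv2- and 12.64 and 12.41 in Flk-1+/Etv2+ cells, a difference of 0.57 (SE 0.13). Its signal was thus bright in both populations, and Flk-1+/Etv2- cells were negative by the Venus reporter, not by Etv2 signal. Kdr differed by 0.13 (SE 0.12) and Pdgfra, a receptor of early mesoderm, by -1.65 (SE 0.38).

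Lists of differentiated blood cells showed single genes apart from otherwise flat lists. Medians were -0.02 for platelet, -0.02 for macrophage and -0.04 for lymphoid markers. Most of these genes were dim. A mean of at least 6 was reached by 1 of 6 platelet, 1 of 8 macrophage and 1 of 7 lymphoid markers. Those were Clec1b, Mrc1 and Ebf1, so the flat values of the dim genes say little about change. Of 6 platelet markers measured, 5 had differences between -0.16 and 0.05, as Pf4 had, and these included Gp1bb at -0.16 (SE 0.10). Clec1b, which encodes the platelet podoplanin receptor CLEC-2, was the sixth, at 7.52 and 7.19 against 9.05 and 8.64, a difference of 1.49 (SE 0.19, adjusted p = 0.0885). Of 8 macrophage markers Mrc1, the mannose receptor gene, stood apart, at 7.26 and 7.41 against 8.23 and 7.97 (0.76, SE 0.13), with Cd68 at -0.01 (SE 0.18) and Lyz2 at 0.13 (SE 0.18). Of 7 lymphoid markers Ebf1, a factor of B cell precursors also found in mesenchyme, measured 6.33 and 6.13 against 7.40 and 6.90 (0.92, SE 0.20), beside Pax5 at 0.18 (SE 0.09).

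The erythroid and granulocyte lists had medians of -0.01 each, and 1 of 6 and 0 of 8 of their genes reached a mean of 6. Hbb-bh1 and Hba-x, embryonic globins, differed by -0.41 (SE 0.16) and 0.27 (SE 0.10), Epor by 0.09 (SE 0.11), and the granule genes Mpo and Prtn3 by 0.43 (SE 0.11) and -0.40 (SE 0.09).

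The genes whose values over the 4 arrays lay closest to those of Runx1 and of Itga2b, each centred on its own mean, were listed as a description, among 10179 genes with a mean of at least 6. Distance was Euclidean. For Runx1 they were Kmt5a, Ing3, Ppig, Alkbh8 and Polr3f, at distances of 0.0723 to 0.107 log2 units. All 5 were higher on both arrays numbered 2, as Runx1 was on the probe set used, and none separated the populations by more than the arrays within them. For Itga2b they were Mknk1, Tmem144, Rasa3, Pitpnm2 and A630072M18Rik, at distances of 0.0722 to 0.0882, and in all 5 both Flk-1+/Etv2+ arrays lay above both Flk-1+/Etv2- arrays. Mknk1, the nearest, measured 7.56 and 7.64 against 8.35 and 8.25.

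**Figure D4:**
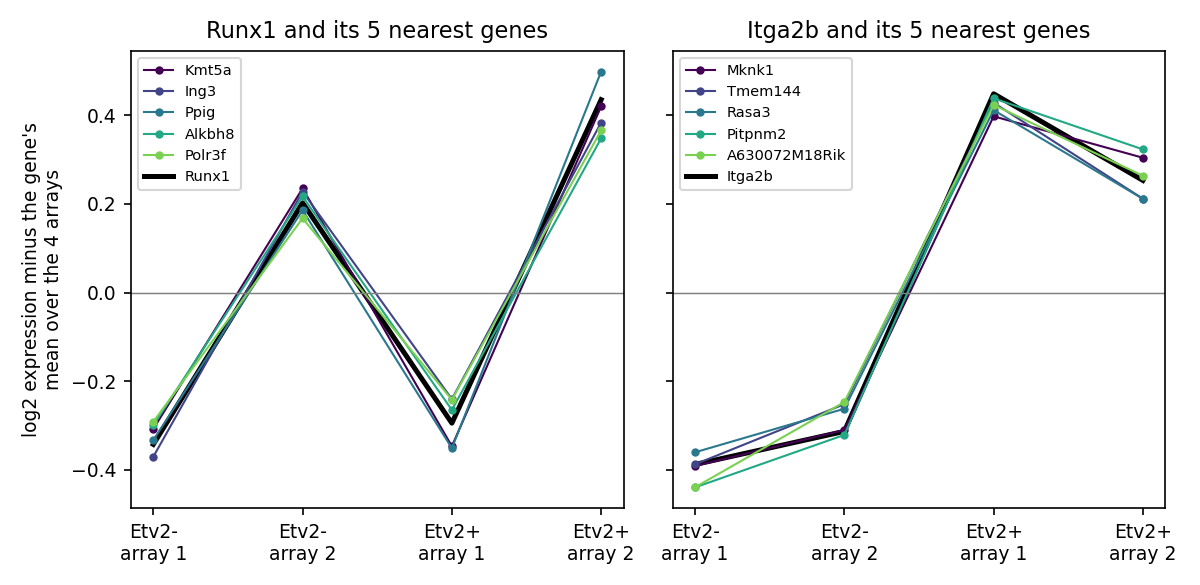
Log2 expression minus each gene's own mean (vertical axis) on the 4 arrays for Runx1 and its 5 nearest genes (left) and Itga2b and its 5 nearest genes (right), chosen by distance over these same arrays. On the probe set used, Runx1 follows the array number, high on both arrays 2, while Itga2b follows the population, high on both Flk-1+/Etv2+ arrays.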

How the data were processed

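Total RNA of 2 sorted populations, 2 arrays each, was biotin-labelled for Affymetrix arrays, per the labels' protocols. The submitters' processing notes name RMA and R 2.8.0, with which the authors made the deposited log2 value of each probe set. That the base is 2 was read from the range, 2.16 to 14.93. RMA normalizes between arrays, so shifts common to all genes are lost and dim signals are compressed. No detection calls or scanner files were used.

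Symbols came from the platform annotation, updated through Entrez identifiers with RefSeq (0 changed). Each of 18194 genes was read on the probe set with the highest mean. The populations were compared with limma 3.58.1 in R 4.3.3 (2 residual and 2.68 prior degrees of freedom), with two-sided p-values adjusted by Benjamini-Hochberg over all genes and a threshold of 0.05. The fit was tested on simulated data. Precision is limited by the small number of arrays. The 11 alternatives changed probe set choice, filter, variance model, normalization, the array number as a block, or left out an array.

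The members, the lists and the rule for named genes were chosen with earlier results of these data known. The rule took the 8 members, per list up to 4 genes with the smallest p in each direction, Gfi1b, Cbfb, Itgb3, Runx2, Runx3 and Gata2, per marker list the 2 brightest and the 2 with the largest differences, and the 5 nearest genes of Runx1 and Itga2b. Etv2, Kdr and Pdgfra were the check of the sort. Figures were drawn with matplotlib 3.10.9.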

Additional observations from a re-analysis of the deposited data

How the results depend on the processing

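None of the 8 members passed an adjusted p of 0.05 in any of the 11 alternatives, and Gfi1, Spi1, Myb, Ikzf1 and Itga2b kept their direction in all 11. Most settings could not have turned it. The fit of every probe set, the filter, the variance model and the block leave these differences unchanged by construction. Where arrays are apart, leaving out 1 array cannot turn the sign. The second Ikzf1 probe set, at -0.06, was not used alone in any setting. The brighter Ptprc probe set stayed below 0 where it was included, but the other Ptprc probe set has the opposite sign. The filter to genes with a mean of at least 6 left out Ptprc and Pf4. With 1 array left out, Runx1 ranged from -0.22 to 0.51 and Pf4 from -0.05 to 0.14. Each reversed in 2 of the 4 cases, Runx1 at -0.132 and -0.225 and Pf4 at -0.0507 and -0.0424. Such fits leave the array numbers unbalanced between the populations, and the cause of the reversals was not tested. The median of the 8 members ranged from 0.33 to 0.50. Among genes with a mean of at least 6, the median was 0.59 for the 6 members left and 0.76 for the 22 companions left. The filter removes dim genes and uses the mean over all 4 arrays. Gfi1, Spi1 and the companion Inpp5d had Flk-1+/Etv2- means of 5.90, 5.87 and 5.82. They passed only through their Flk-1+/Etv2+ arrays, so these medians follow in part from the filter itself. That filter called 67 genes higher and 13 lower, 4 of them companions (Lmo2, Fli1, Erg and Plek). A mean-variance trend with robust estimation called 81 and 31, with 5 companions. The labels link arrays of the 2 populations by number alone and do not say what arrays of 1 number share. The differences between arrays 1 and 2 correlated at 0.543 across genes, which are not independent replicates. With the replicate block the number of calls stayed 0 higher and 0 lower, and Ikzf1 had the lowest adjusted p of the members, 0.0856. Depth has no counterpart here. Dim signals limit what can be read for Ptprc, Pf4, the second Ikzf1 probe set and most markers of differentiated blood cells.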

Other observations

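The members differed in how they varied with the array number, a pattern that belongs to no comparison of the study. On the probe sets used, Runx1, Myb and Ikzf1 were higher on array 2 than on array 1 in both populations, as were 20.4% of all genes. The other Runx1 probe sets were mixed, some higher on array 2 in both populations and others not. For the Runx1 probe set used the gap was 0.55 in Flk-1+/Etv2- and 0.73 in Flk-1+/Etv2+ cells. Of all genes, 0.94% were at least 0.5 higher on array 2 in both. For Ikzf1 it was 0.32 and 0.37, smaller than its difference of 0.86 between the populations. Gfi1 and Spi1 were lower on array 2 in both populations, as were 45.9% of all genes, by -0.18 and -0.37 for Gfi1 and by -0.05 and -0.09 for Spi1. Itga2b, Ptprc and Pf4 did not keep 1 direction.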
